A study of Mus musculus with 18 samples.

Results

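RNA-seq was used to compare 2 pluripotent states related to mouse embryonic stem cells (ESCs). ESC-ASCs are ESCs from 2i/LIF medium that had been converted to the ASC state in a medium with Activin A, BMP4, the GSK3 inhibitor CHIR99021 and LIF, and EpiLCs are epiblast-like cells. Each group had 3 samples, and these 6 of the 18 samples of the series were compared over the autosomal genes, which were 33458 of the 35773 genes counted. The label of all 6 samples gave wild type genotype and the strain 129S2/SvPasCrl, whereas the study names the ESC lines that it converted without saying which was sequenced (the file headers of the ESC-ASC samples carry the tag mSQ). ESC-ASCs were long-passaged in the conversion medium, and the passage at harvest and the EpiLC medium are not given in the sources used here. The replicates are described as biological, without saying whether each was a separate culture, so p-values measure the spread between these samples. The ESC samples in 2i/LIF, the parental state of the conversion, are given beside some values as a description, and no difference from them was tested.

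Naive pluripotency is the state of the preimplantation epiblast and is kept in culture by LIF, which acts through the kinase JAK1 and the transcription factor STAT3, together with inhibition of ERK signalling and of GSK3. ESCs that leave this state pass through a formative state, for which EpiLCs are the usual culture model, in which factors such as ESRRB and KLF4 are lost and OTX2, POU3F1 and the de novo DNA methyltransferases appear. OCT4, encoded by Pou5f1, is shared by both states. EpiLCs are also the starting cells for making primordial germ cell-like cells.

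The 3 ESC-ASC samples held between 17813619 and 18071600 counts, and the 3 EpiLC samples held 8793127, 9906473 and 8343111. The deeper group was also counted in a separate run of the counting program according to the file headers, so depth, counting run and cell state cannot be told apart by design, and ESC-ASC counts drawn down to the EpiLC depth were used as a check. EpiLC replicate 1 stood apart from replicates 2 and 3. Mitochondrial genes took 4.31% of its counts against 2.76% and 2.64%, and replication-dependent histone genes took 0.107% against 0.0598% and 0.0537%. In the ESC-ASC samples the mitochondrial share was 1.58% to 1.96% and the histone share 0.0279% to 0.0298%. Bulk samples cannot tell fewer cells of a type from less RNA per cell.

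Of the 16212 autosomal genes with enough counts to test, 3186 were higher in ESC-ASCs and 3163 were lower by more than 2-fold at an adjusted p below 0.05 (edgeR quasi-likelihood test with Benjamini-Hochberg adjustment, used for every adjusted p here). Those are 19.7% and 19.5% of the genes tested, and every count over a gene list below is read against these shares. A gene past this rule is called higher or lower from here on. Without EpiLC replicate 1 the counts were 3110 and 2800, and with ESC-ASC counts drawn down to the EpiLC depth they were 2957 and 3099. The stricter rule of a more than 4-fold difference, with a level above about 7.9 normalized read counts per kb in at least one group, was passed by 935 higher genes (5.77%) and 824 lower genes (5.08%), or by 933 and 730 without EpiLC replicate 1. A normalized read count is the count divided by the sample's size factor and by the gene's exonic length in kb, so that levels can be set side by side between genes. The median log2 fold change over all tested genes was -0.01. An adjusted p below 0.05 alone was reached by 64.1% of the genes, and the 3 samples of each group did not overlap in 38.2% with ESC-ASCs above and in 36.2% with ESC-ASCs below.

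**Figure D1:**
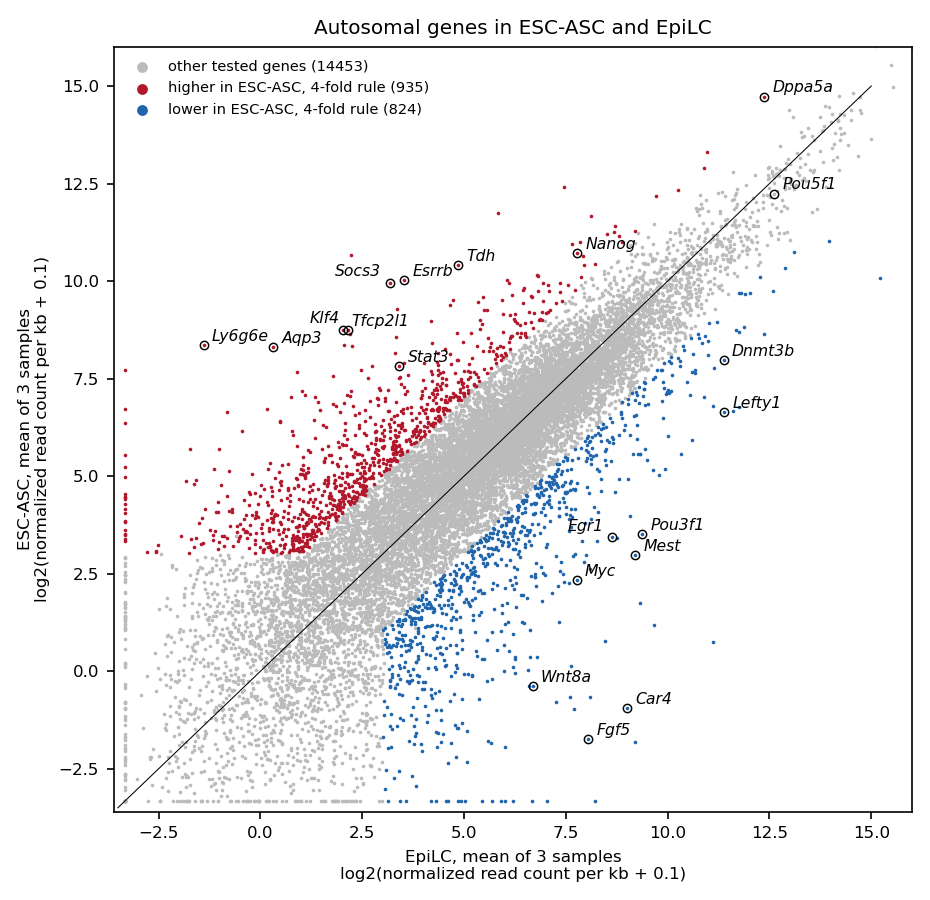
Mean log2(normalized read count per kb + 0.1) of each tested autosomal gene in the 3 EpiLC samples (horizontal) and the 3 ESC-ASC samples (vertical), with the diagonal as the line of equal level. The 935 genes higher in ESC-ASCs by the 4-fold rule are red and the 824 lower genes blue; Pou5f1 lies near the diagonal, Socs3, Esrrb, Klf4 and Tfcp2l1 far above it, and Fgf5, Car4 and Wnt8a far below it.

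Most naive transcription factors were higher in ESC-ASCs. Of the 10 autosomal genes of this list, 9 were higher in ESC-ASCs and 1 was lower, with a median log2 fold change of 5.66. Esrrb, an orphan nuclear receptor of the naive network, stood at 1057, 976 and 1087 normalized read counts per kb in the ESC-ASC samples and at 8.22, 14.8 and 11.5 in the EpiLC samples. Every ESC-ASC sample lay far above every EpiLC sample, and the log2 fold change was 6.46 ± 0.26 (SE; adjusted p = 5.9e-13). Klf4, a Krüppel-like factor that STAT3 is known to induce, was at 458, 418 and 420 in ESC-ASCs and at 4.55, 4.64 and 3.86 in EpiLCs (log2 fold change 6.60 ± 0.18; adjusted p = 3.6e-15). Tfcp2l1, another factor downstream of LIF, was at 432, 397 and 451 against 2.82, 4.87 and 4.20, a log2 fold change of 6.71 ± 0.27. ESCs averaged 735 ± 120 (SD, n = 3) for Esrrb, 786 ± 108 for Klf4 and 710 ± 190 for Tfcp2l1.

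The other members of the list spanned a wide range. Tbx3, a T-box factor, averaged 130 ± 3.86 (SD, n = 3) in ESC-ASCs and 1.59 ± 0.586 in EpiLCs, Prdm14, a repressor of FGF receptor signalling and of de novo methylation, 35.0 ± 1.64 and 0.484 ± 0.521, and the nuclear receptor Nr5a2 70.8 ± 7.19 and 1.61 ± 0.177. Klf5 was at 374, 346 and 410 in ESC-ASCs and at 3.36, 15.9 and 10.6 in EpiLCs, with EpiLC replicate 1 the lowest. Klf2 and Zfp42, which encodes the naive marker REX1, kept more expression in EpiLCs, at 45.1 ± 8.10 and 88.2 ± 14.1, and their log2 fold changes were 3.75 ± 0.21 and 3.33 ± 0.18. Gbx2, a homeobox gene that is a LIF and STAT3 target in ESCs, went the other way. It was at 39.5, 32.1 and 40.0 in ESC-ASCs and at 87.6, 78.0 and 78.2 in EpiLCs, with no overlap, a log2 fold change of -1.15 ± 0.21 and an adjusted p of 0.00012. ESCs stood at 130 ± 2.80 for this gene. Of the exonic length of Gbx2, 31.6% overlaps another gene, so its reads could not be assigned to it alone.

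**Figure D2:**
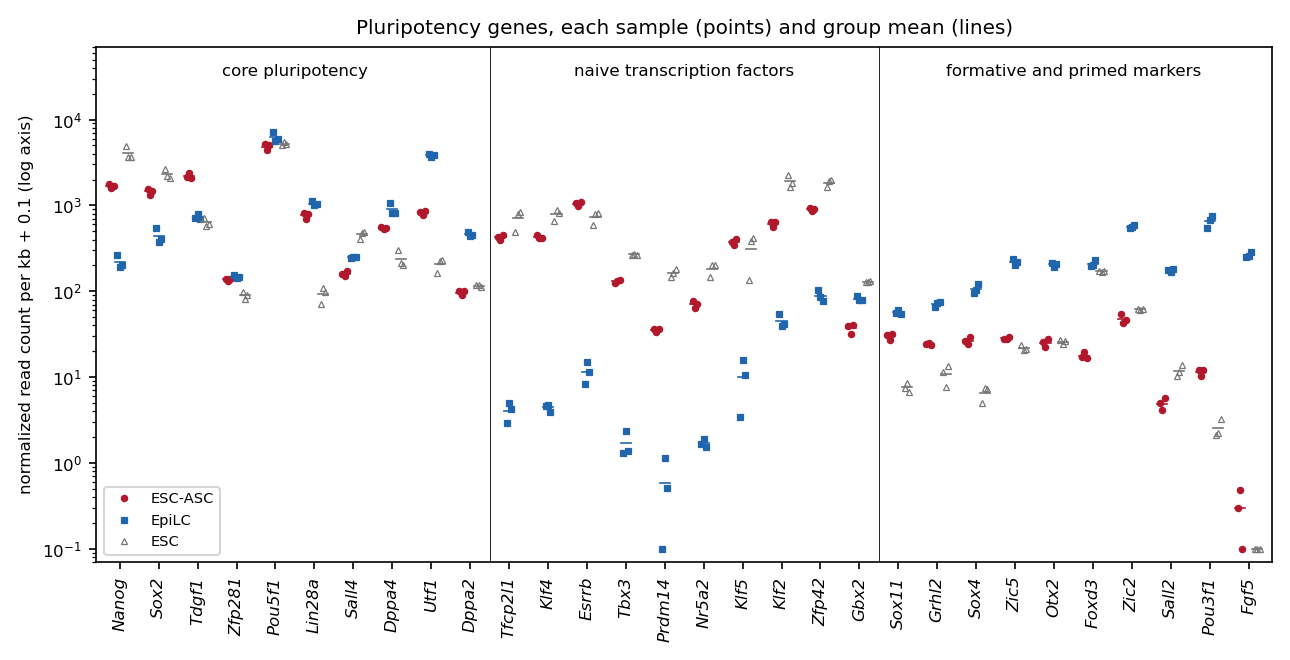
Normalized read count per kb + 0.1 (log axis) of the 30 genes of the core pluripotency, naive transcription factor and formative and primed lists in each ESC-ASC (red circles), EpiLC (blue squares) and ESC (grey triangles) sample, with group means as lines. In the naive list 9 genes lie higher in ESC-ASCs than in EpiLCs, all but Gbx2, whereas all 10 genes of the formative and primed list lie lower.

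A wider list of naive and maternal markers followed, with 9 of 12 higher and 1 lower. Tcl1, a coactivator of AKT, was at 339, 311 and 312 in ESC-ASCs and at 3.76, 4.32 and 5.80 in EpiLCs (log2 fold change 6.08 ± 0.24). Khdc3, which encodes a component of the oocyte subcortical maternal complex, was at 145, 125 and 138 against 3.38, 2.16 and 0.522 (6.03 ± 0.33), although 38.5% of its exonic length overlaps another gene and its reads could not be assigned to it alone. Jam2, a junctional adhesion molecule, averaged 116 ± 3.98 and 3.35 ± 1.17. Dppa5a was among the most abundant transcripts of both groups, at 27152 ± 2616 and 5304 ± 278. The lower gene was Gdf3, a TGF-beta family ligand, at 106 ± 12.0 against 254 ± 30.6. Dppa3, a maternal factor that protects methylated DNA, was not called: ESC-ASCs were at 332, 224 and 268, EpiLCs at 205, 118 and 127, and ESCs averaged 2439 ± 996. Fgf4, the ERK-activating ligand of ESCs, also stayed below the 2-fold threshold at 591 ± 30.1 and 449 ± 1.16.

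Formative and primed markers were on the opposite side. None of the 10 was higher in ESC-ASCs, 9 were lower, and the median log2 fold change was -3.32. Fgf5, the ligand by which EpiLCs are usually recognized, was at 0.202, 0.391 and 0 normalized read counts per kb in ESC-ASCs and at 252, 259 and 287 in EpiLCs. That difference was -10.10 ± 0.33 on the log2 scale (adjusted p = 3.0e-13), and the ESC samples had no Fgf5 counts. Pou3f1, which encodes the POU factor OCT6, was at 12.0, 10.2 and 12.0 against 550, 677 and 760 (-5.88 ± 0.20), and Sall2, a zinc finger gene, was at 4.84, 4.05 and 5.55 against 175, 170 and 183 (-5.21 ± 0.18). Otx2, the homeobox factor that redirects OCT4 to formative enhancers, averaged 25.2 ± 2.70 and 205 ± 10.3, with ESCs at 25.7 ± 1.64. Zic2 and Zic5, zinc finger factors of the epiblast, differed by -3.59 ± 0.14 and -2.98 ± 0.14.

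Foxd3, a forkhead factor needed for the exit from the naive state, was at 17.0, 19.5 and 16.4 in ESC-ASCs and at 197, 204 and 228 in EpiLCs (log2 fold change -3.59 ± 0.15), while ESCs were at 170 ± 2.79. Sox4 (26.6 ± 2.71 against 107 ± 14.0) and Grhl2, a regulator of epithelial enhancers (24.2 ± 0.755 against 70.7 ± 4.71), were lower too; 54.6% of the exonic length of Sox4 is shared with another gene. Sox11 stayed just under the 2-fold threshold at -0.95 ± 0.17, with no overlap between the groups.

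Core pluripotency genes did not move as a block: 3 of 10 were higher, 2 were lower and 5 were not called. Pou5f1 was at 5126, 4391 and 5042 in ESC-ASCs and at 7155, 5637 and 5924 in EpiLCs, a log2 fold change of -0.38 ± 0.19 (adjusted p = 0.092). Nanog was at 1787, 1586 and 1700 against 263, 193 and 204, 7.59-fold higher (log2 fold change 2.92 ± 0.17), and Sox2 was 3.24-fold higher at 1453 ± 121 against 442 ± 85.2. Tdgf1, which encodes the Nodal co-receptor CRIPTO, was 3.01-fold higher. The 2 lower genes were Dppa2, a regulator of bivalent and zygotic genes, at 96.7 ± 4.89 against 459 ± 25.8, and Utf1, a chromatin factor of pluripotent cells, at 821 ± 35.7 against 3824 ± 150. Zfp281 differed by only -0.12 ± 0.17, and Sall4, Dppa4 and Lin28a lay below the 2-fold threshold on the lower side, with log2 fold changes from -0.74 to -0.47.

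All 9 members of the LIF-STAT3 list were higher in ESC-ASCs, with a median log2 fold change of 2.54. LIF was in the medium of these cells. The receptor genes came first: Lifr was at 31.6, 36.7 and 30.6 against 5.15, 3.77 and 4.56 (log2 fold change 2.86 ± 0.22), and its partner Il6st, which encodes gp130, was at 51.6, 64.0 and 51.9 against 9.58, 8.77 and 10.1 (2.54 ± 0.24). The kinase gene Jak1 had the smallest difference of the list, with 86.1, 86.7 and 91.5 against 25.3, 30.4 and 36.3. Stat3 itself was at 224, 214 and 238 in ESC-ASCs and at 9.58, 11.0 and 11.1 in EpiLCs, 21.0-fold higher (4.39 ± 0.22; adjusted p = 5.6e-12), and ESCs were at 99.5 ± 30.4. Socs3, the feedback inhibitor that STAT3 induces, was at 1045, 954 and 996 against 8.79, 9.49 and 8.51, 109-fold higher (6.77 ± 0.19), with ESCs at 381 ± 14.9. Among other known targets, Bcl3 differed by 4.71 ± 0.30, Pim3 by 2.34 ± 0.14, Pim1 by 2.12 ± 0.13 and Junb by 1.90 ± 0.19.

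Stat3 lies on chromosome 11 beside Stat5a and Stat5b, which encode related STAT factors, and beside Cavin1, which encodes a coat protein of caveolae. These genes were picked out after their values were seen. All 4 passed the 4-fold rule as neighbouring tested genes: Stat5a was at 39.4, 37.1 and 40.2 in ESC-ASCs and at 1.78, 2.36 and 1.80 in EpiLCs (log2 fold change 4.25 ± 0.24), and Stat5b at 52.7, 54.2 and 59.2 against 3.34, 3.83 and 5.41 (3.70 ± 0.22). For Stat5a and Stat5b the ESC samples were at 4.68 ± 0.975 and 5.05 ± 0.726.

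Promoter windows were scanned for the palindrome TTCCNGGAA, a form of the site that STAT3 is known to bind, on both strands and over 250 bases before to 50 bases after each RefSeq start site. A window with the motif was found for 20 of the 609 matched genes that were higher by the 4-fold rule (3.28%), for 7 of 449 lower genes (1.56%) and for 169 of all 11333 tested genes with a matched promoter (1.49%). No member of the LIF-STAT3 list was among the 20. Jak1 and Junb did not pass the 4-fold rule and so could not be among them. Only 609 of the 935 genes past that rule had a matched promoter. How many of the list's members these include is not given here, so their absence does not show that their promoters lack the motif. A window of Bcl6 and of Icam1 is given here for its first 250 bases, up to its RefSeq start site. These are genes with the motif upstream of a RefSeq start site, and they were chosen after their values were seen. The capitals mark the motif in the RefSeq sequence of GRCm38.p6, written 5′ to 3′ on the strand of the gene. A match is a description of the letters only. The Bcl6 window is chr16:23981284-23981533 on the minus strand and holds the motif at 2 places. The Bcl6 gene as counted spans chr16:23965052-23988852, so this window belongs to a start site inside the gene and not to its outermost 5′ end. The Icam1 window is chr9:21015690-21015939 on the plus strand, with the motif starting 42 bases before the start site.
Bcl6: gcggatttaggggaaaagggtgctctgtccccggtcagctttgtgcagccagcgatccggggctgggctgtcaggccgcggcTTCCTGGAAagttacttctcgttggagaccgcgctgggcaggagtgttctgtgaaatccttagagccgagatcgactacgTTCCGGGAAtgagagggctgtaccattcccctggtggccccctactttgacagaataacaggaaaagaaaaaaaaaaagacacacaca
Icam1: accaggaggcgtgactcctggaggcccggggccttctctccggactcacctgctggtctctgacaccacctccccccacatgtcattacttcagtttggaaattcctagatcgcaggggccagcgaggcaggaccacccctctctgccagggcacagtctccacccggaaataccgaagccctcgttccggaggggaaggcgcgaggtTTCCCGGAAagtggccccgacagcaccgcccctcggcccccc

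Bcl6, which encodes a transcriptional repressor, was at 8.38, 7.66 and 8.70 normalized read counts per kb in ESC-ASCs and at 0, 0.132 and 0 in EpiLCs, with a log2 fold change of 6.91 ± 0.54 that rests on very few EpiLC counts. Icam1, which encodes a cell adhesion molecule, was at 356, 420 and 335 against 52.3, 46.0 and 45.1 (2.94 ± 0.23). Of the other motifs searched in the same windows, CTTTGA, a TCF-LEF site, was found for 14.6% of higher genes against 14.0% of all promoters, ATGCAAAT, the octamer, for 1.81% against 1.64%, and TGACTCA, an AP-1 site, for 5.91% against 4.46%. TCAAGGTCA, an ESRRB site, was found for 1 of 609 higher genes, 0.164% against 0.326% of all. The E-box CACGTG was found for 11.8% of higher and 6.90% of lower genes, against 11.4% of all.

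Genes of the FGF-ERK route were mostly not called, but its immediate-early and feedback genes were split. Of 15 members, 1 was higher and 5 were lower in ESC-ASCs. Egr1, an immediate-early transcription factor gene, was at 10.9, 9.70 and 11.4 against 402, 402 and 379 (log2 fold change -5.22 ± 0.14; adjusted p = 3.6e-15). Dusp6, which encodes an ERK phosphatase, was at 63.8, 55.9 and 57.9 against 357, 306 and 321 (-2.49 ± 0.14), and the ligand genes Fgf8 and Fgf15 averaged 6.79 ± 2.23 against 110 ± 22.4 and 25.9 ± 4.90 against 141 ± 20.5. In contrast, the Sprouty genes of the same feedback loop gave close values, with Spry2 at 173, 182 and 170 against 165, 163 and 188, and with log2 fold changes of 0.01 ± 0.11 for Spry2, -0.03 ± 0.14 for Spry1 and -0.32 ± 0.17 for Spry4. Etv4 and Etv5, ETS factors induced by FGF, differed by 0.23 ± 0.14 and 0.09 ± 0.18. ESCs, whose medium contains a MEK inhibitor, were at 1.06 ± 0.564 for Spry4 and 1.31 ± 0.112 for Dusp4, where ESC-ASCs were at 58.4 ± 5.74 and 137 ± 4.19. Some other genes of the list did not share this order, with ESCs at 395 ± 24.3 for Spry2, 841 ± 162 for Etv5 and 119 ± 13.6 for Fgfr1, where ESC-ASCs were at 175 ± 5.90, 767 ± 43.0 and 63.2 ± 5.35. Ier3, an immediate-early survival gene, was the higher member, at 302, 282 and 309 against 41.9, 43.0 and 48.3.

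**Figure D3:**
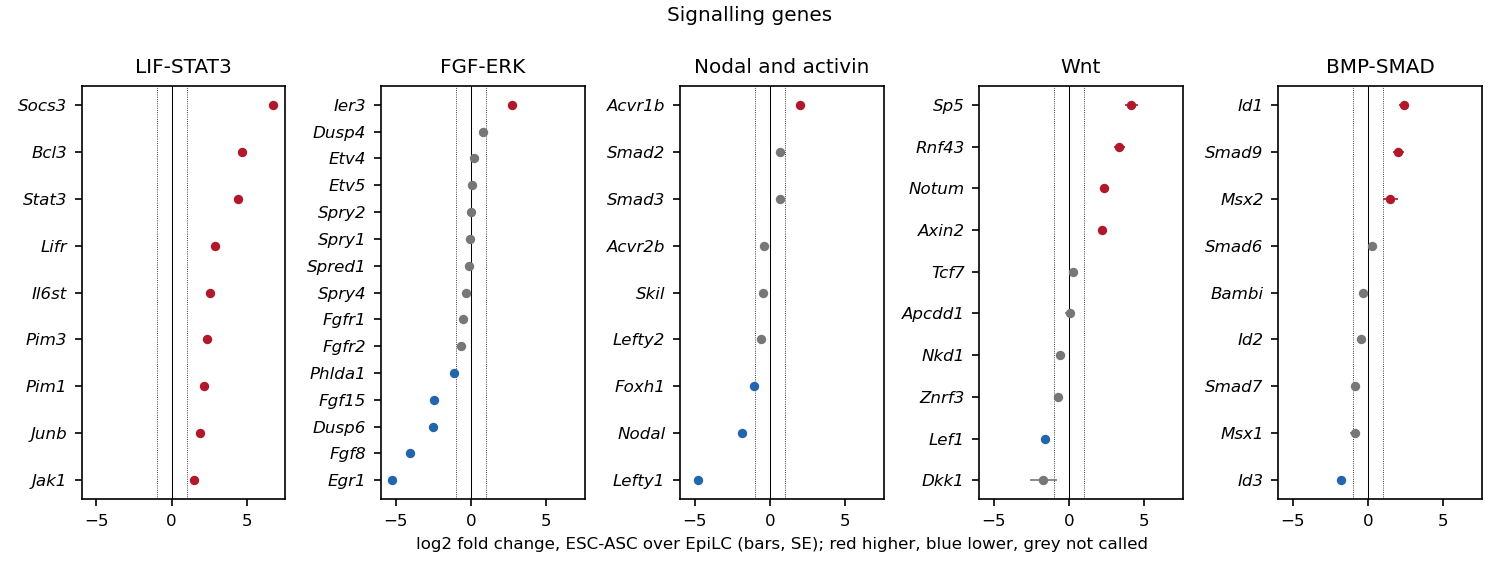
Log2 fold changes of ESC-ASCs over EpiLCs for the tested genes of 5 signalling lists (points; bars, SE; red higher, blue lower, grey not called; dotted lines at a 2-fold difference), without Lgr5, which had no counts in ESC-ASCs, and with 1 lower Nodal and activin gene not drawn. All 9 LIF-STAT3 genes lie to the right, whereas the FGF-ERK, Nodal, Wnt and BMP lists spread to both sides.

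Nodal and activin genes had 1 higher and 4 lower of 10. Activin A was part of the ESC-ASC medium, and whether EpiLCs also received it is not given in the sources used here. Lefty1, the secreted Nodal inhibitor and a SMAD2/3 target, was at 101, 103 and 93.5 in ESC-ASCs and at 2896, 2816 and 2299 in EpiLCs (log2 fold change -4.77 ± 0.20; adjusted p = 7.6e-13). Its neighbour in function, Lefty2, differed only from 279 ± 22.3 to 411 ± 43.5 and was not called. Nodal was at 77.9, 97.9 and 76.3 against 349, 293 and 264 (-1.86 ± 0.20). The receptor gene Acvr1b was the higher member, at 156 ± 14.5 against 38.4 ± 9.32.

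Wnt targets and feedback genes had 4 higher and 2 lower of 11. Sp5, a direct target of beta-catenin, was at 17.1, 12.6 and 16.8 in ESC-ASCs and at 1.65, 0.421 and 0.510 in EpiLCs (log2 fold change 4.14 ± 0.43). Axin2, the scaffold of the destruction complex and a general Wnt target, was at 41.8, 32.9 and 44.6 against 6.51, 9.48 and 9.13 (2.21 ± 0.20), and Rnf43 and Notum, negative regulators of Wnt signalling, differed by 3.35 ± 0.36 and 2.31 ± 0.26. Of the exonic length of Notum, 38.1% overlaps another gene, so its reads could not be assigned to it alone. The 2i/LIF medium of ESCs also contains CHIR99021, and ESCs averaged 522 ± 20.7 for Sp5, 209 ± 21.3 for Axin2, 538 ± 103 for Notum and 12.1 ± 0.759 for Rnf43. Lef1 was lower, at 26.0 ± 2.29 against 76.9 ± 14.6, with ESCs at 20.2 ± 1.75. Nkd1 and Tcf7 were not called, at 4.63 ± 0.477 against 6.87 ± 1.15 and 349 ± 18.7 against 289 ± 17.9, and ESCs were at 2.56 ± 0.881 and 337 ± 26.3. The other lower call, Lgr5, rests on 5 counts in all in EpiLCs and none in ESC-ASCs.

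Of 9 BMP-SMAD targets, 3 were higher and 1 was lower (2 were lower without ESC-ASC replicate 2). Id1 and Id3, inhibitors of basic helix-loop-helix factors that usually respond together, were on opposite sides: Id1 was at 71.0, 72.4 and 78.9 against 20.9, 12.2 and 9.23 (log2 fold change 2.38 ± 0.31), and Id3 was at 29.1, 24.0 and 27.8 against 98.1, 95.8 and 90.2 (-1.83 ± 0.21). Id2 was not called, at 50.3 ± 2.25 and 69.1 ± 8.71. Smad9, which encodes SMAD8, was higher at 3.69 ± 0.936 against 0.866 ± 0.261.

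Among 9 enzymes that write, copy or oxidize DNA methylation, 3 were higher and 3 lower. Dnmt3b, a de novo methyltransferase, was at 274, 232 and 250 in ESC-ASCs and at 2442, 2748 and 2789 in EpiLCs (log2 fold change -3.42 ± 0.15; adjusted p = 1.8e-12), and Dnmt3a was at 46.1, 45.5 and 48.2 against 241, 334 and 338 (-2.73 ± 0.16). Their cofactor Dnmt3l, which has no catalytic activity of its own, was higher instead, at 1023, 1034 and 1072 against 386, 408 and 432 (1.33 ± 0.18). Uhrf1, which recruits DNMT1 to replicating DNA, was higher by 1.04 ± 0.18, just past the 2-fold threshold (0.98 and not called without EpiLC replicate 1, which leaves 2 higher in the list), and Dnmt1, the maintenance enzyme, remained under it at 0.78 ± 0.13. The oxidase genes Tet2 and Tet3 lay on opposite sides, at 24.3 ± 0.694 against 5.78 ± 1.17 and at 3.16 ± 0.206 against 12.1 ± 2.99, and Tet1 was at 121 ± 3.28 and 85.4 ± 9.87 (adjusted p = 0.066).

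Germline genes, many of which carry methylated promoters in somatic cells, gave no common direction: 3 of 18 were higher and 4 lower, with a median log2 fold change of -0.06. Sohlh2, a spermatogonial transcription factor gene, was at 289, 257 and 294 against 53.8, 50.9 and 59.3 (2.34 ± 0.15), and Piwil2, a piRNA pathway Argonaute, averaged 57.4 ± 3.05 and 13.5 ± 2.25. The synaptonemal complex gene Sycp1 (16.3, 16.9 and 14.6 against 64.7, 46.5 and 48.2) and Tdrd1, which encodes a Tudor protein of germ granules (2.17 ± 0.524 against 9.23 ± 3.19), were lower. Dazl was nearly equal, at 46.7 ± 2.07 and 44.5 ± 6.59, with ESCs at 432 ± 124. Among 6 germ cell specification genes 3 were higher, namely Tfap2c at 145 ± 9.53 against 11.9 ± 1.08, the receptor gene Kit at 97.7 ± 15.5 against 11.2 ± 0.899 and Prdm1, which encodes BLIMP1, at 17.7 ± 2.00 against 4.37 ± 1.16.

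Imprinted genes were lower in 10 of 18 cases and higher in 4 (9 and 5 without EpiLC replicate 1). Mest, an imprinted gene expressed from the paternal copy, was at 7.69, 7.43 and 8.28 in ESC-ASCs and at 614, 578 and 579 in EpiLCs, 76.5-fold lower (log2 fold change -6.26 ± 0.16; adjusted p = 3.6e-15). ESCs were at 65.8 ± 8.42 for this gene. In the Dlk1-Meg3 cluster on chromosome 12, Dlk1 was at 0.737 ± 0.291 against 11.9 ± 2.40, Meg3 at 126 ± 22.5 against 262 ± 35.6, Rian at 196 ± 19.6 against 492 ± 65.6 and Mirg at 10.1 ± 0.573 against 96.2 ± 17.4, so that genes of the paternal and the maternal copy of this cluster were both lower. Rtl1, a retrotransposon-derived gene of the cluster, was at 1.03, 1.46 and 1.82 against 28.0, 16.7 and 18.5, and reads of overlapping genes on opposite strands could not be told apart in this counting. Kcnq1ot1, the silencing RNA of a chromosome 7 cluster, was at 0.102 ± 0.0315 against 1.86 ± 0.740. The higher genes were Grb10 (124 ± 7.03 against 23.2 ± 2.38), Igf2r (160 ± 42.8 against 39.1 ± 5.78), Plagl1 and Sgce. The H19 RNA was not called, at 66.3 ± 1.77 and 105 ± 7.36. Zfp57, a zinc finger gene whose product protects imprints, was outside the list and was higher, at 513, 555 and 485 against 137, 112 and 101 (2.13 ± 0.25).

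Genes of growth control differed in their MYC family members. Myc was at 7.13, 3.35 and 4.36 in ESC-ASCs and at 234, 208 and 210 in EpiLCs, 44.3-fold lower (log2 fold change -5.47 ± 0.24; adjusted p = 1.7e-12), and ESCs were at 8.63 ± 1.42. Mycn, with the highest level of the 3 MYC genes in ESC-ASCs, was lower by a smaller margin, at 130, 115 and 123 against 397, 399 and 454. Over the list of 13 MYC genes, G1 cyclins and CDK inhibitors, 5 were lower and 2 higher. Ccne1 and Ccnd1, cyclins of the G1 phase, had log2 fold changes of -1.64 ± 0.13 and -1.57 ± 0.13, and the higher genes were Ccnd3 (191 ± 13.3 against 70.3 ± 1.65) and the CDK inhibitor Cdkn1a (903 ± 67.7 against 241 ± 23.3). Lin28b was lower at 25.0 ± 2.39 against 62.5 ± 4.22 and Igf2bp2, which encodes an RNA-binding protein, was higher at 228 ± 11.2 against 65.2 ± 5.18, while the other 4 of 6 oncofetal genes were not called.

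In metabolism, Tdh, which encodes threonine dehydrogenase, a mouse ESC enzyme that feeds one-carbon units and acetyl-CoA, was at 1446, 1302 and 1351 against 27.0, 25.4 and 33.6, 47.1-fold higher in ESC-ASCs (log2 fold change 5.56 ± 0.18; adjusted p = 5.9e-14). Gldc, of the glycine cleavage system, and Psat1, of serine synthesis, were higher too, by 1.89 ± 0.14 and 1.41 ± 0.15, and the list had 3 higher and 1 lower of 14 (none lower without EpiLC replicate 1 or without ESC-ASC replicate 2). Glycolysis had 4 higher and 1 lower of 17 (2 lower without EpiLC replicate 2 or 3). Slc2a3, the high-affinity glucose transporter GLUT3, was at 2998, 3834 and 2847 against 218, 342 and 267 (3.53 ± 0.26), and Pfkp, a phosphofructokinase, was at 877, 894 and 856 against 91.0, 87.2 and 84.5 (3.30 ± 0.16). Slc16a3, the lactate exporter MCT4, was the lower gene, at 240 ± 30.8 against 961 ± 94.1, and Slc2a1, which encodes GLUT1, was not called at 1728 ± 215 and 1953 ± 194.

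Sterol and fatty acid synthesis had 6 of 21 lower and none higher (1 higher, Scd1, which lay just under the 2-fold threshold, without ESC-ASC replicate 1 or 2 or EpiLC replicate 2). Mvk, the mevalonate kinase, was at 49.3, 33.6 and 40.6 against 113, 132 and 152 (-1.71 ± 0.22), and Fasn, the fatty acid synthase, averaged 187 ± 7.26 and 568 ± 102. For oxidative phosphorylation, 13 of 77 nuclear genes were lower and 2 higher, but only 6 were lower without EpiLC replicate 1 and 8 without ESC-ASC replicate 2. In all 13 lower genes EpiLC replicate 1 had the highest value, as in Uqcr11, a subunit of complex III, at 853, 754 and 823 against 3868, 2248 and 2396. The same library had the highest mitochondrial share of the 6, and its part in these calls was not tested beyond these counts. Paralogs with restricted tissue expression had the widest differences: Cox7b2 was at 4.66, 2.70 and 2.78 against 145, 93.0 and 126, and Cox6b2 and Cox4i2 were higher at 508 ± 7.94 against 115 ± 16.9 and 38.8 ± 6.42 against 6.39 ± 1.29.

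Basement membrane genes were higher or not called. Of that list 5 of 9 were higher and none lower (1 lower, the laminin gene Lamb1, without ESC-ASC replicate 2 or EpiLC replicate 3). Nid1, which encodes the linker protein nidogen, was at 167, 224 and 157 against 3.63, 9.22 and 5.49 (log2 fold change 4.85 ± 0.30), and Lama1, a laminin chain, at 61.7, 84.0 and 53.6 against 5.83, 6.97 and 5.06 (3.45 ± 0.26). ESC-ASC replicate 2 was the highest of its group for these genes and for Fn1, the fibronectin gene, which stood at 979, 1324 and 817 against 55.2, 77.3 and 68.2. Of 10 tested cadherin and epithelial-mesenchymal genes, 3 were higher (Fn1, Vim and Zeb1) and 1, the claudin gene Cldn6, was lower (2 were lower without EpiLC replicate 3). Cdh1 remained abundant in both groups, at 526 ± 79.9 and 909 ± 57.7.

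Markers of other cell types were measured to see what else the cultures could hold. Among 15 streak and mesoderm genes 11 could be tested, with 3 higher and 3 lower. Wnt8a, a Wnt ligand of the early streak, was at 1.16, 0.560 and 0.288 in ESC-ASCs and at 107, 111 and 90.7 in EpiLCs (log2 fold change -7.15 ± 0.38), and Cdx1 was higher at 45.0 ± 8.50 against 1.96 ± 0.711. T, the brachyury gene, averaged 15.4 ± 1.43 in ESC-ASCs and 5.68 ± 0.761 in EpiLCs. The summed level of the list was 98.5 to 116 in ESC-ASCs and 134 to 162 in EpiLCs. Endoderm genes had 6 higher and 4 lower of 12 tested (2 lower without ESC-ASC replicate 2 or 3), at summed levels of 80.9 to 88.1 and 44.3 to 49.7. Sox17 stood near 1 in both groups, at 1.01 ± 0.405 and 1.09 ± 0.593, Gata4 was at 13.1 ± 1.40 against 1.84 ± 0.215, and Foxa2 was lower at 0.703 ± 0.131 against 10.1 ± 0.910.

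Trophoblast genes had 3 higher and 3 lower of 9 tested, with summed levels of 467 to 598 and 411 to 417. The defining factors were near 0, with Cdx2 at 0.368 ± 0.464 and 1.72 ± 1.04 and Gata3 at 0.169 ± 0.193 and 0.148 ± 0.257, whereas the keratin gene Krt19 was at 146, 228 and 178 against 13.7, 9.54 and 8.08 (4.13 ± 0.27), and Ascl2, also a Wnt target, was at 141 ± 5.36 against 18.4 ± 0.639. On the lower side, the keratin gene Krt18 was at 118 in ESC-ASCs and 267 in EpiLCs on average (-1.19 ± 0.16) and Gcm1, a labyrinth factor gene, at 1.24, 0.721 and 0.494 against 9.09, 6.09 and 6.84 (-3.09 ± 0.45). Neural genes had 1 higher and 2 lower of 6 tested (none higher without EpiLC replicate 3), led by Tubb3 at 50.5 ± 7.13 against 177 ± 11.7, with Pax6 under 1 on average in both. Fibroblast markers had none higher and 5 lower of 6 tested, at summed levels of 50.8 to 61.5 and 127 to 137. That total was led by Thy1, which was not called, and by Dcn, which encodes decorin and was at 0, 0 and 0.482 against 79.8, 59.4 and 54.4. The collagen genes Col1a1 and Col3a1 were at 3.61 ± 2.56 and 0.737 ± 0.692 in EpiLCs, and Col3a1 had no counts in ESC-ASCs. In ESCs Col3a1 was at 11.2 ± 6.03, above EpiLCs, and Dcn at 14.5 ± 10.1, below them. The part of such cells in the other results was not tested.

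Hox genes could be tested for 18 of 39 members, of which 5 were higher and 1 lower (2 lower without EpiLC replicate 2). Hoxc13 was at 44.2, 37.1 and 40.0 against 2.35, 0 and 0.870 (5.28 ± 0.37), and its neighbour Hoxc12 had 71 counts over the ESC-ASC samples and none in EpiLCs, which makes it at least 11.5-fold higher when EpiLCs are set to 3 counts over the group. ESCs were at 88.5 ± 0.935 and 62.6 ± 29.4. Two-cell stage genes, which mark rare cells in ESC cultures, had 2 of 11 higher and none lower, Usp17lc at 8.21 ± 1.43 against 2.77 ± 1.49 and Tcstv1 at 6.90 ± 0.997 against 3.24 ± 0.816. The Tcstv1 call was lost without EpiLC replicate 2 or 3, which leaves 1. The Zscan4 family was of similar level in both groups, for instance Zscan4c at 70.9, 46.8 and 56.1 against 58.4, 41.2 and 37.6, and its members are near-identical copies whose reads cannot be separated with certainty. For MHC class I, 2 of 8 were lower, and the immunoproteasome gene Psmb8 was at 0.185, 0.179 and 0.367 against 38.0, 29.7 and 32.5 (-6.89 ± 0.35), while H2-K1 and B2m were not called.

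**Figure D4:**
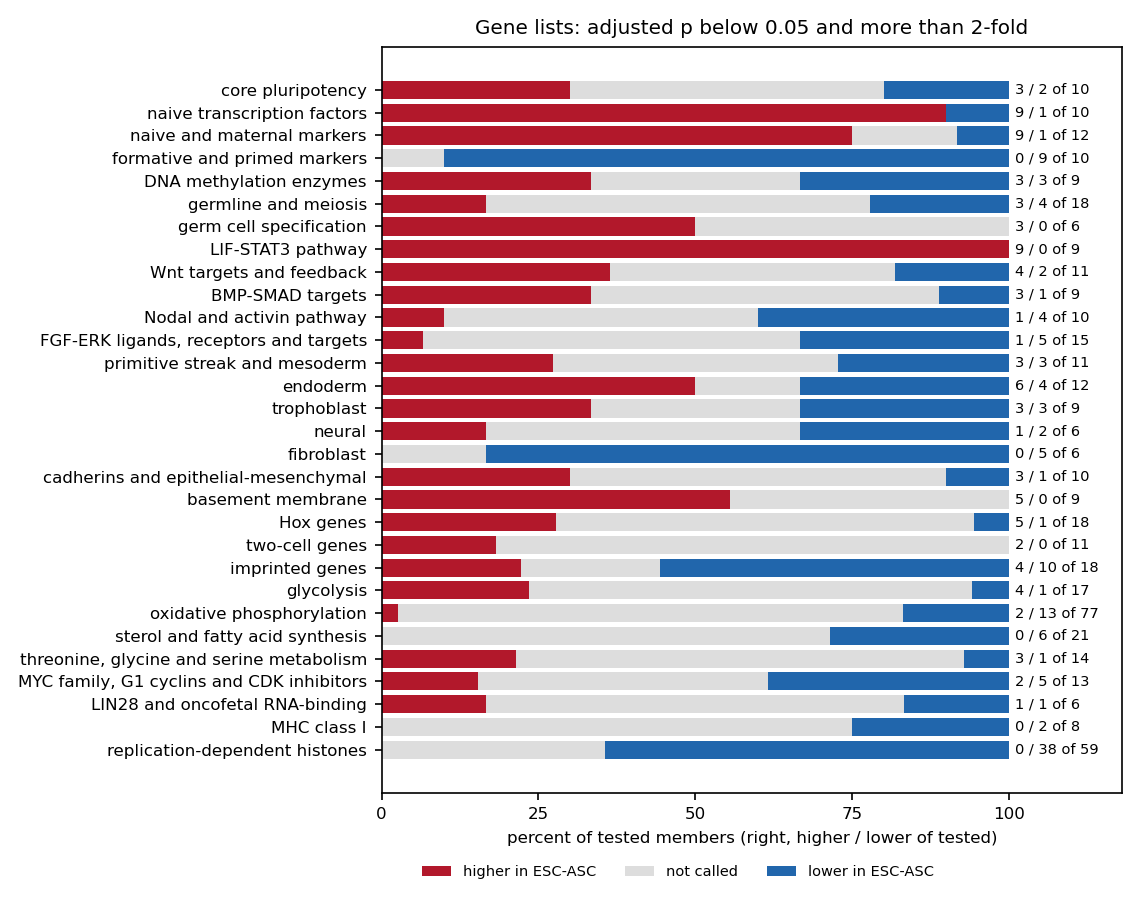
Percent of the tested members of each of the 30 gene lists that were higher (red), lower (blue) or not called (grey) in ESC-ASCs, with the counts at the right. The LIF-STAT3 list is all higher (9 of 9), naive transcription factors nearly so (9 of 10), and formative and primed markers (9 of 10), fibroblast markers (5 of 6) and histones (38 of 59) are mostly lower.

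The largest differences in either direction, chosen by a fixed rule on fold change and level, included genes outside these lists. Ly6g6e and Ly6g6d, which lie in the MHC region and encode surface proteins of the Ly6 family, were at 320, 320 and 344 against 0, 0 and 0.841, and at 198, 192 and 216 against 1.97, 1.51 and 1.83. Aqp3, an aquaglyceroporin gene, was at 312, 347 and 293 against 1.90, 0.967 and 0.585 (log2 fold change 8.05 ± 0.26), with the ESC samples between 546 and 640. Lrrc31, Serpinb6c, Crtac1, Padi2 and Slc22a18 completed the top group with Socs3 and Tfcp2l1, with log2 fold changes from 6.61 to 7.96. Slc22a18, an imprinted transporter gene, was at 101, 115 and 102 against 2.04, 1.04 and 0.

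On the lower side, Car4, which encodes a membrane carbonic anhydrase, was at 0, 0.745 and 0.511 in ESC-ASCs and at 536, 508 and 490 in EpiLCs (log2 fold change -10.07 ± 0.41). Enpp2, which encodes autotaxin, was at 0.437, 0.141 and 0.869 against 177, 154 and 131 (-8.25 ± 0.29), and Tmem54 at 0, 1.20 and 0.411 against 217, 190 and 174. Car4, Enpp2 and Tmem54 were at or near 0 in ESCs. The ribosomal protein pseudogenes Rpl13-ps3 and Rpl36-ps3 were near 0 in ESC-ASCs but were counted in both EpiLCs and ESCs, with Rpl13-ps3 at 241, 279 and 295 in EpiLCs and 278 to 444 in ESCs; their reads can be shared with near-identical copies.

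In 56 of the 33458 autosomal genes no read was counted in the 3 EpiLC samples while ESC-ASCs had at least 30 in all, and in 33 the reverse held. Bdkrb2, a bradykinin receptor gene, had 81 to 134 counts per ESC-ASC sample and was at least 52.0-fold higher, against a floor of 3 counts over the EpiLC group, followed by Lmcd1 (at least 28.1-fold), Scube2, Nkx6-3 and Mobp. In the other direction Jakmip2 was at least 168-fold lower, Pde4b, a phosphodiesterase gene, at least 159-fold, Gbp2, an interferon-induced GTPase gene, at least 153-fold, Cend1 at least 151-fold and Kynu, of tryptophan breakdown, at least 107-fold lower. The greater depth of ESC-ASCs makes a 0 there a lower ceiling than a 0 in EpiLCs. The minimum of 30 was set on counts not scaled for depth, so it was easier to reach in ESC-ASCs. The 56 and 33 genes therefore cannot be compared as they stand.

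The share of calls varied with gene class. Of 861 antisense RNA genes tested, 33.2% were higher and 17.2% lower. Of 182 snoRNA genes 52.7% were lower and 7.14% higher, of 41 processed pseudogenes 65.9% were lower, and of 59 replication-dependent histone genes 64.4% (38) were lower and none higher, against the 19.7% and 19.5% of all genes. Histone transcripts lack a poly(A) tail and snoRNAs are short, so both enter a poly(A)-selected library only in part. Histone genes took 0.107% of the counts of EpiLC replicate 1, the library that stood apart, and 26 of the 59 were lower without it, with 1 higher, whereas 92 snoRNA genes were lower without it, against 96 with it. Hist1h2af, for example, was at 668, 951 and 944 against 10752, 4008 and 3782. Of the exonic length of Hist1h2af, 35.3% is shared with another gene, so its reads could not be assigned to it alone. The predicted gene Gm44297, which lies within Hist1h2af, was at 1621, 2311 and 2300 against 27911, 10314 and 9464. Exonic length moved with direction as well, since the median log2 fold change was -0.16 in the shortest 4053 tested genes and 0.14 in the longest 4053. Reads were counted without strand and for every gene they overlapped, so some of these reads can belong to another gene. Most of the exonic length was shared with another gene in 193 of the antisense RNA genes and 92 of the snoRNA genes. The same held for 385 of the 13853 protein-coding genes. The part of shared reads, RNA quality or library preparation in these classes was not tested.

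**Figure D5:**
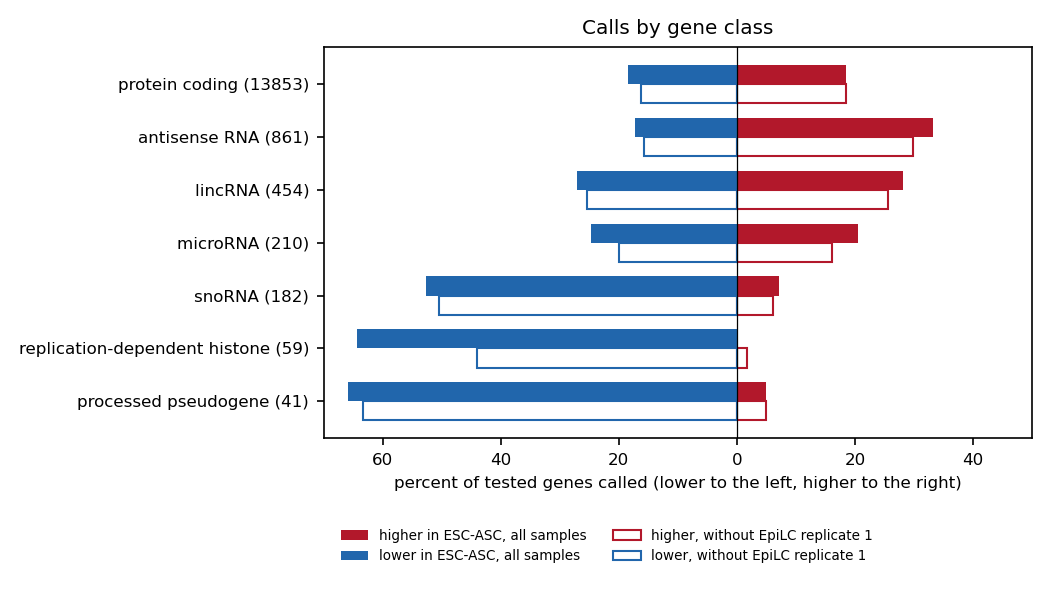
Percent of tested genes of each class that were called higher (red, to the right) or lower (blue, to the left) in ESC-ASCs with all samples (filled) and without EpiLC replicate 1 (open), with the number tested in brackets. The snoRNA, histone and processed pseudogene classes lie mostly to the left, and leaving out that sample shortens the histone bar from 38 to 26 genes.

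Chromosome medians of the log2 fold change ran from -0.19 on chromosome 14 to 0.14 on chromosome 9. The X chromosome, which was left out of all counts together with its genes such as Nr0b1 and Sox3, had a median of -0.18. Some medians depended on EpiLC replicate 1. Without it the X median was -0.07 and that of chromosome 13 went from -0.13 to -0.0037, while chromosomes 14 and 9 were at -0.15 and 0.17.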

How the data were processed

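RNA was taken as poly(A) RNA from bulk cells with a directional kit and sequenced on a HiSeq4000. Per the study's methods and the file headers, the authors aligned the reads to GRCm38 with TopHat2 and Ensembl release 86, and counted them per gene with featureCounts 1.5.0-p1 without strand, with reads that map to several places or overlap several genes counted for each (minimum overlap of 10 bases). Near-identical and overlapping genes therefore share reads. The deposited values used were these raw counts per gene, with symbols for 35514 of 35773 genes. The submitters' notes also name DESeq2.

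Counts of all 18 samples (6 groups of 3) were fitted once with edgeR 4.0.16 in R 4.3.3 (TMM scaling, robust quasi-likelihood), after a filter that left 16901 genes (10 or more counts, 3 or more samples). Adjusted p-values (Benjamini-Hochberg) run over those genes, and 16212 autosomal ones are reported. Errors of fold changes are SE from the F statistic. Levels use DESeq2 1.42.0 size factors, exonic length and, on the log scale, a pseudocount of 0.1. Gene classes came from GENCODE, promoters from RefSeq (GRCm38.p6). Simulated counts of 16339 genes held 100 known 2-fold and 100 known 4-fold changes. Of these, 70% and 100% passed an adjusted p below 0.05 alone. Of the calls there, 3.95% were false by that adjusted p and 2.63% with the 2-fold rule added. Whether these rates hold for the calls reported here, where 64.1% of genes passed that adjusted p, was not tested.

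The members and the 30 gene lists were chosen with earlier results of these data known. Genes were named by rule: all members of 4 lists, the 3 called members with the largest change of each other list, the 10 highest and 10 lowest past the 4-fold rule (at least 32 normalized counts per kb), and 5 genes per direction at 0 in one group; other names were chosen after their values were seen. Replicates differed by more than sampling noise, so none were merged. Deviations from the group mean correlated by 0.0357, 0.113 and 0.0621 between same-numbered samples of the 2 groups. Between samples of different number the correlations were lower, from -0.0725 to 0.0178. All were small and the numbers were not taken as pairs in the main fit. The alternatives were DESeq2, RLE scaling, TMM on autosomal genes, no filter or a CPM filter, the 6 samples alone, thinned ESC-ASC counts, a replicate block and leaving out each sample. No per-sample column was left unused. Some genes covered by the naming rule or the lists are not reported here.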

Additional observations from a re-analysis of the deposited data

How the results depend on the processing

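Counts of higher and lower genes stayed within 1.5 times their reported values under all 14 alternatives. Leaving out 1 of the 6 samples gave 2991 to 3226 higher and 2800 to 3127 lower genes, and 893 to 1000 and 730 to 840 past the 4-fold rule. The other alternatives gave 2861 to 3658 higher and 2781 to 3497 lower genes, and 882 to 1057 and 786 to 851 past the 4-fold rule, with the largest counts mostly from keeping all genes. With the replicate number as a block in the fit, 3233 genes were higher and 3151 lower, of which 3177 and 3128 were also called without it. DESeq2 called 3170 and 3107, of which 3114 and 3092 were shared.

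For the 139 genes named by rule these alternatives gave 1928 values, none of them with a changed direction; 18 values could not be computed, for 8 genes such as Spata45. Among them, Lin28a lost its adjusted p below 0.05 in 3 alternatives (without EpiLC replicate 1, without ESC-ASC replicate 2 and without the filter), Tcstv1 in 3 (without EpiLC replicate 2 or 3 and with DESeq2), Pou5f1 gained one with the 6 samples alone (log2 fold change -0.39) and Tet1 gained one there (0.48) and without the filter (0.57). Depth limits the EpiLC side most, where 1 count stands for more than in ESC-ASCs, and the samples per group limit all tests to 3 against 3.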

Other observations

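Genes past the 4-fold rule in the same direction that were neighbours among the tested genes formed 12 runs of 4 or more genes, 9 higher and 3 lower, by a rule set after the values were seen. Some runs hold predicted genes that lie within or overlap a named gene of the run. Reads were counted without strand and for every gene they overlapped, so such members are not independent and the number of runs includes them. On chromosome 3, Lrrc34, Lrriq4, Lrrc31 and a predicted gene that lies within Lrrc31 were all higher, with Lrrc34 at 333, 318 and 329 normalized read counts per kb in ESC-ASCs and 4.89, 3.27 and 3.96 in EpiLCs. On chromosome 7, Cblc, Bcl3 and Pvr and 3 predicted genes formed a run of 6, with Cblc at 66.2, 56.9 and 71.0 against 8.64, 9.05 and 6.74 and Pvr, the poliovirus receptor gene, at 64.9, 84.2 and 68.3 against 8.87, 16.6 and 8.91. Of these predicted genes, Gm16175 and Gm16174 lie within Bcl3, and 64.9% of the exonic length of Gm16175 is shared with another gene. A run of 6 on chromosome 17 held H2-M5, Zfp57, Mog, Gabbr1 and Ubd. On chromosome 6, Klf15, Aldh1l1 and Slc41a3 were higher with an overlapping predicted gene, Klf15 at 126, 123 and 126 against 7.45, 4.75 and 9.59.

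The lower runs held the Rtl1 region of chromosome 12, a histone group on chromosome 13 and Duxbl2, Plac9b, Tmem254b and Duxbl3 on chromosome 14, which belong to a duplicated region whose copies share reads; Tmem254b was at 50.9, 47.8 and 43.6 against 631, 606 and 677. Txnip, which encodes a regulator of glucose uptake that responds to sugar, was in a run on chromosome 3 with Polr3gl, at 899, 952 and 1031 in ESC-ASCs, 128, 139 and 136 in EpiLCs and 114 ± 2.11 (SD, n = 3) in ESCs. The same run held the predicted genes Gm15441, which spans Txnip, and Gm16253, which overlaps Polr3gl. Maff, a small MAF factor gene, was at 191, 201 and 219 against 37.1, 33.4 and 34.8, with ESCs at 7.98 ± 3.14. Neat1, the architectural RNA of paraspeckles, was at 46.1, 48.7 and 47.4 against 10.1, 10.3 and 8.04, and 3 predicted genes counted inside it share its reads.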
